A study of Arabidopsis thaliana and Medicago truncatula and Solanum lycopersicum with 15 samples.

Results

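Open chromatin regions of root tip nuclei were compared between Medicago truncatula, a legume with 8 numbered chromosomes, and Arabidopsis thaliana, with 5. The regions were those listed on a numbered chromosome in both replicates of a species, where a region of one replicate touched a region of the other by at least 1 bp and touching regions were joined into a single region. This gave 21218 regions in Medicago and 12788 in Arabidopsis, 34006 of the 753507 entries in the 14 region lists of the series. The series mapped transposase-accessible DNA (ATAC-seq) in roots of 4 plant species and of isolated Arabidopsis cell types, in 15 samples. The Medicago group was the A17 background and the Arabidopsis group was the Col-0 background, both labelled as 1 cm root tips of plants grown upright on nutrient agar, with 2 biological replicates each. All of these plants, Medicago and Arabidopsis alike, carried the INTACT transgenes, a biotinylatable nuclear envelope tag (NTF) driven by the UBQ10 promoter and the biotin ligase BirA driven by the ACT2 promoter. Both promoters are described as constitutive in the submitters' design, so the purified nuclei are a mixture of all root tip cell types. From each sample 50000 nuclei, caught on streptavidin beads, were treated with Tn5. The region lists hold positions and no expression values, so the tissue could not be checked against marker genes.

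The transposase Tn5 inserts sequencing adapters where DNA is not wrapped in nucleosomes or buried in compact chromatin, so regions with many insertions mark promoters, enhancers and other accessible DNA. In plants such regions lie mostly next to genes. Plant centromeres and the pericentromeric DNA around them are rich in repeats and transposons and are packed as heterochromatin. Arabidopsis has a compact genome in which genes are close together and heterochromatin is concentrated around the centromeres, whereas the larger Medicago genome has more transposon-derived DNA between its genes.

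The lists held 34365 regions in Medicago replicate 1 and 39005 in Medicago replicate 2, against 23288 in Arabidopsis replicate 1 and 23690 in Arabidopsis replicate 2, on the numbered chromosomes. They give positions only, so the number of reads behind a region and the depth of a sample are unknown, and the part of depth in the numbers of regions was not tested. Chromosome length was taken as the distance from the first base to the end of the last region listed in any replicate, which summed to 384 Mb in Medicago, with 35.2 to 56.6 Mb per chromosome, and to 119 Mb in Arabidopsis, with 18.6 to 30.4 Mb per chromosome. Each list is placed on its own species' assembly, so a difference between the species and one between their assemblies cannot be told apart.

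Arabidopsis replicate 2 stood apart from Arabidopsis replicate 1 in where its regions lay. With a RefSeq gene table of 27444 protein-coding genes, 32.1% of region midpoints in Arabidopsis replicate 1 fell inside a gene body, against 55.3% in Arabidopsis replicate 2. Gene bodies make up 54.1% of the chromosomes' length. The other Arabidopsis root tip lists of the series, from Col-0 nuclei prepared by sucrose sedimentation, had 31.9% and 33.3% of midpoints inside gene bodies, close to replicate 1. Outside genes but within 1 kb of one lay 49.7% of midpoints in Arabidopsis replicate 1 and 28.0% in Arabidopsis replicate 2, while 20.4% of the chromosomes' length is of that kind. The regions found in both Arabidopsis replicates resembled replicate 1, with 35.9% of midpoints inside genes and 47.8% outside but within 1 kb. Results that rest on Arabidopsis are therefore given list by list, and the values of most measures without 1 replicate are stated where they moved much. No gene annotation of Medicago was used here, so the same check was not made there.

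Open regions were sparser along Medicago chromosomes than along Arabidopsis chromosomes in the INTACT lists. Medicago had 89.4 regions per Mb in replicate 1 and 101.5 in replicate 2, against 195.5 and 198.9 regions per Mb in the Arabidopsis replicates. The Medicago lists were both below the INTACT Arabidopsis lists and these groups did not overlap. Among regions found in both replicates the density was 55.2 per Mb in Medicago and 107.4 per Mb in Arabidopsis, a ratio of 0.514. In each list the regions covered 3.35% and 3.24% of the Medicago chromosomes, against 7.39% and 6.97% of the Arabidopsis chromosomes. Regions found in both replicates covered 2.80% of the Medicago and 5.72% of the Arabidopsis chromosomes.

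The density averaged 95.5 ± 8.54 regions per Mb in Medicago and 197 ± 2.39 in Arabidopsis (SD, n = 2 lists each), a log2 difference of -1.05 with a pooled SD of 0.0922. The smallest two-sided p that an exact permutation test can give with 2 lists against 2 is 0.333, so no comparison of these 4 lists can reach 0.05. Density and covered percentage were both at that limit, with an exact permutation p of 0.333 and an adjusted p of 0.667 (Benjamini-Hochberg over the 10 measures compared between the species). The spread within a species is between replicates labelled biological. With the sucrose lists counted as Arabidopsis the log2 difference was -0.66 in density (exact permutation p 0.2) and -0.54 in covered percentage (exact permutation p 0.333). Those lists held fewer regions, 11702 and 15813, which covered 3.31 and 4.39 Mb. Their mean gaps were 9881.5 and 7250.9 bp, against 10808.5 and 9533.8 bp in Medicago, so sucrose replicate 1 lay between the Medicago lists. With the sucrose lists included, the species therefore overlapped in density and in covered percentage.

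**Figure D1:**
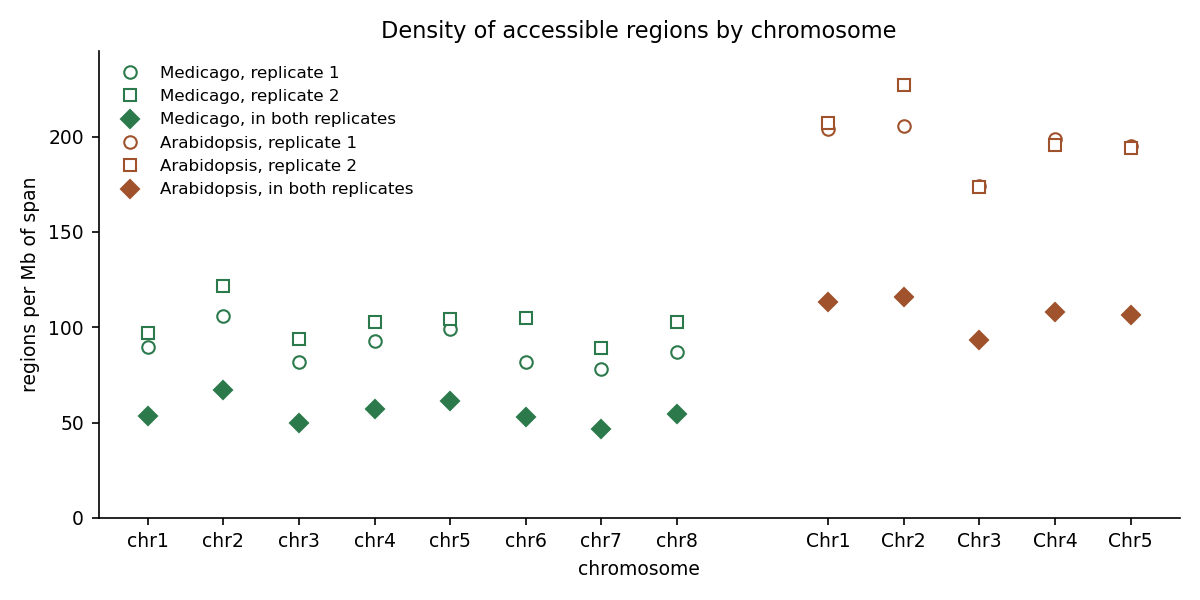
Open regions per Mb of chromosome (y axis) for each numbered chromosome, Medicago left and Arabidopsis right, with the replicates and the regions found in both replicates as separate points. Each Medicago chromosome lies below each Arabidopsis chromosome, from 46.8 to 66.9 regions per Mb in Medicago and from 93.3 to 116.0 in Arabidopsis for regions found in both replicates.

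The chromosomes of a species resembled each other in density more than they resembled the other species. In Medicago, chromosome 2 was the densest, with 66.9 regions per Mb found in both replicates, and chromosome 7 the sparsest, with 46.8. These ranks held in each Medicago list, where chromosome 2 had 106.1 and 121.8 regions per Mb and chromosome 7 had 78.0 and 88.9. The Medicago replicates differed most on chromosome 6, at 81.8 and 104.8 regions per Mb. In Arabidopsis, chromosome 2 was the densest at 116.0 and chromosome 3 the sparsest at 93.3 regions per Mb in both replicates, again the same chromosomes in each list. The lead of chromosome 2 over chromosome 1 was small for regions found in both replicates (113.2 on chromosome 1) and in replicate 1 (205.7 against 203.7). It was larger in replicate 2 (227.1 against 207.0). Chromosome 2 also holds the fullest 100 kb window, named below, whose part in this rank was not tested. The coefficient of variation of density between chromosomes was 0.107 and 0.0957 in the Medicago lists, against 0.0646 and 0.0989 in the Arabidopsis lists. These ranges overlapped (log2 difference 0.34, exact permutation p 0.667, adjusted p 0.833). The difference was 0.033 without Arabidopsis replicate 1 and 0.65 without Arabidopsis replicate 2.

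Over equal bins along the chromosome, region number varied less in Medicago than in Arabidopsis. The Medicago ends were denser than the rest, while the ends in the INTACT Arabidopsis lists were sparser. The low stretches were shallower in Medicago than in Arabidopsis replicate 1, but at about the same level as in Arabidopsis replicate 2. Each chromosome was cut into 20 equal bins, 1.76 to 2.83 Mb long in Medicago and 0.929 to 1.52 Mb long in Arabidopsis, numbered from the low-coordinate end. The coefficient of variation over bins, averaged over chromosomes, was 0.268 and 0.353 in Medicago, against 0.437 and 0.394 in Arabidopsis, so the lists did not overlap. The log2 difference was -0.43 with a pooled SD of 0.213 (exact permutation p 0.333, adjusted p 0.667). It was -0.23 without Medicago replicate 1 and -0.63 without Medicago replicate 2. The size of the difference depended on the number of bins, at -0.65 with 10 bins and -0.27 with 40. Bins are longer in Medicago, and the part of bin length in the difference was not tested. For regions found in both replicates the coefficient was 0.316 in Medicago and 0.467 in Arabidopsis. Bin counts of the replicates correlated with r = 0.805 over 160 Medicago bins and r = 0.838 over 100 Arabidopsis bins, a description only, since bins of a chromosome share a library and an assembly.

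**Figure D2:**
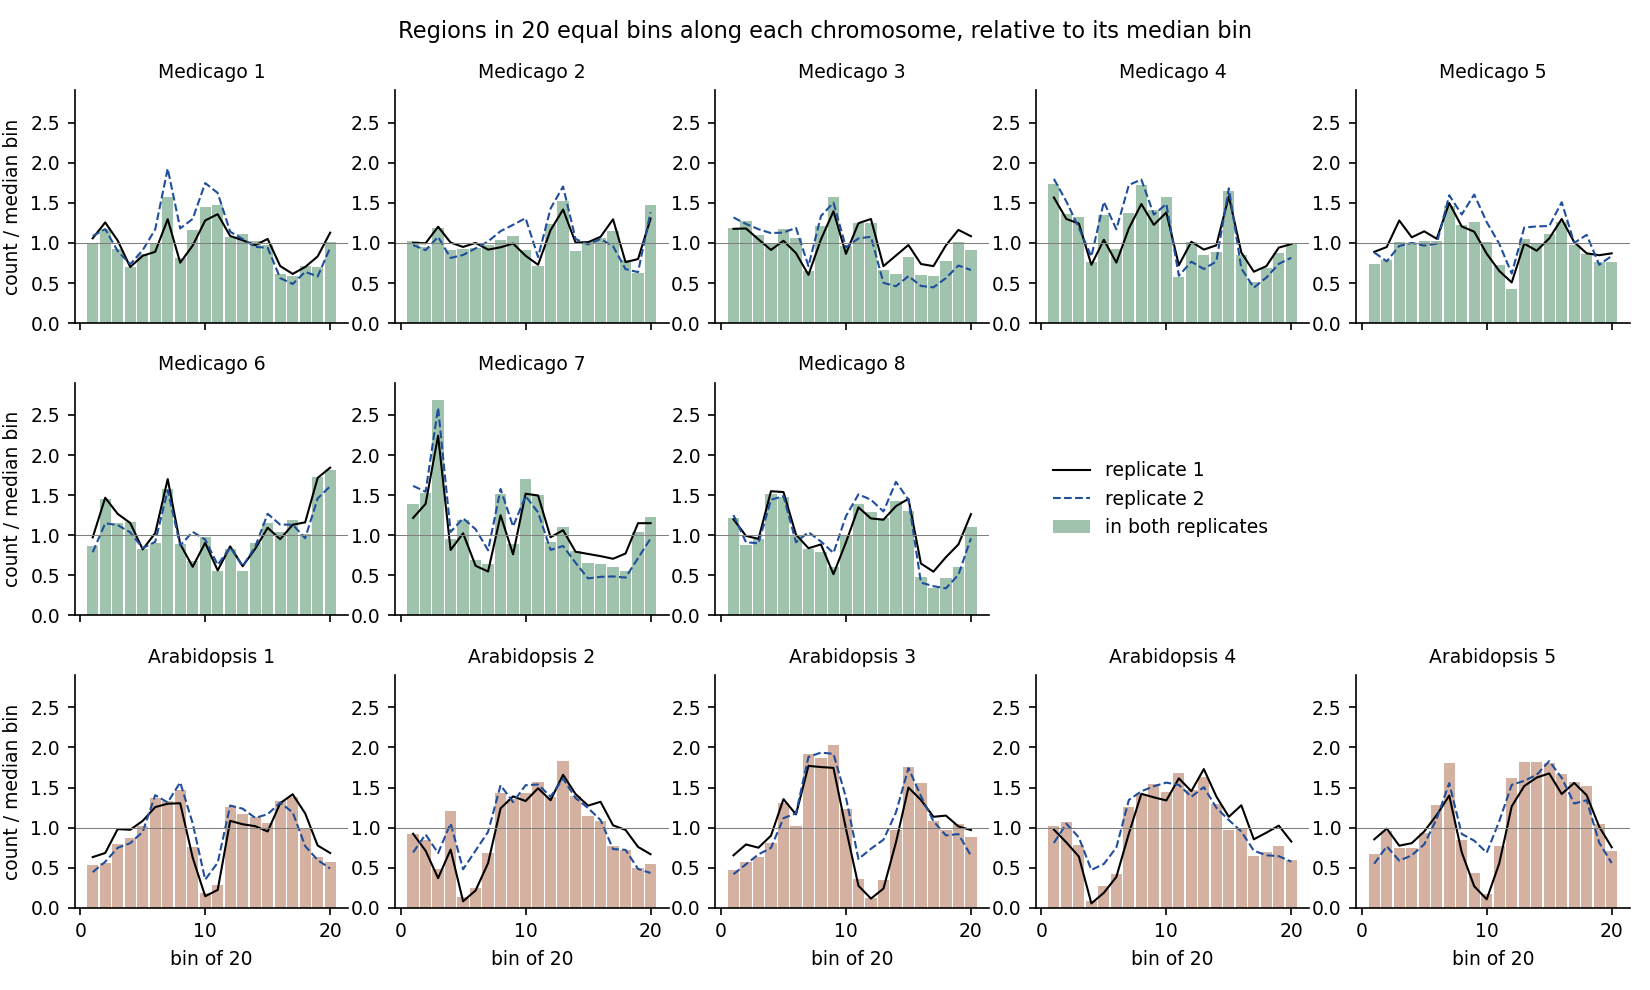
Regions per bin relative to the chromosome's median bin (y axis) along 20 equal bins (x axis, position from the low-coordinate end), for Medicago chromosomes above and Arabidopsis chromosomes below, with lines for the replicates and bars for regions found in both. For regions found in both replicates, the lowest bin of each Arabidopsis chromosome lies between 0.090 and 0.179 of the median bin and that of each Medicago chromosome between 0.337 and 0.627. In Arabidopsis replicate 2 the same Arabidopsis bins lie between 0.352 and 0.737.

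The lowest bin of each Medicago chromosome kept 0.337 to 0.627 of that chromosome's median bin for regions found in both replicates, against 0.090 to 0.179 in Arabidopsis. The shallowest Medicago trough was bin 19 of chromosome 2 and the deepest was bin 17 of chromosome 8, from 36444853 to 38722655, with 42 regions found in both replicates and 103 and 82 in the lists. Of the 8 Medicago chromosomes, 6 had their lowest bin of such regions among bins 17 to 19, and chromosomes 5 and 6 had it in bins 12 and 11. The place of the lowest bin was not stable, since it lay among bins 17 to 19 on 2 chromosomes in Medicago replicate 1 and on 5 in Medicago replicate 2, and was the same bin in both lists on 3 of 8. In Arabidopsis the lowest bins were 10, 5, 12, 4 and 10 on chromosomes 1 to 5, for regions found in both replicates and in replicate 1. In Arabidopsis replicate 2 the lowest bin was the same on chromosomes 1 and 4 and was an end bin on the other 3. The deepest was bin 4 of chromosome 4, from 2787080 to 3716106, with 9 regions in both replicates.

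At these bins Arabidopsis replicate 2 was higher than replicate 1. Bin 4 of Arabidopsis chromosome 4 held 10 regions in replicate 1 and 83 in replicate 2, and bin 12 of chromosome 3 held 23 and 137. Over the 5 bins named above, the mean was 0.101 of the median bin in Arabidopsis replicate 1 and 0.546 in Arabidopsis replicate 2. The lowest bins of the Medicago chromosomes for regions found in both replicates averaged 0.644 and 0.512 of the median in the Medicago lists, so Arabidopsis replicate 2 lay between them. With each list's own lowest bin, wherever it lay, the ratio of lowest to median bin, averaged over chromosomes, was 0.589 and 0.505 in Medicago, against 0.101 in Arabidopsis replicate 1 and 0.446 in Arabidopsis replicate 2. The sucrose lists gave 0.119 and 0.117, near Arabidopsis replicate 1. This ratio, chosen after the data were seen, differed by 1.37 on the log2 scale (exact permutation p 0.333, adjusted p 0.4 over 6 added measures). It was 0.29 without Arabidopsis replicate 1 and 2.44 without Arabidopsis replicate 2. With the sucrose lists counted as Arabidopsis the exact permutation p was 0.0667, the smallest that 2 against 4 lists allow.

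Bins with under 0.5 of their chromosome's median count made up 4 of 160 bins in Medicago (2.5%) and 15 of 100 in Arabidopsis for regions found in both replicates. The individual lists had 0 and 12 such bins in Medicago, against 13 and 8 in Arabidopsis. Bins under 0.25 of the median numbered 0 in Medicago and 5 in Arabidopsis, 1 on each Arabidopsis chromosome. Arabidopsis replicate 1 alone had 9 such bins, while Arabidopsis replicate 2 had 0. The upper end of the profile was closer between the species. The highest bin over the median bin, averaged over chromosomes, was 1.61 and 1.80 in Medicago, against 1.65 and 1.70 in Arabidopsis (log2 difference 0.023, exact permutation p 1, adjusted p 1). The highest Medicago bin relative to its median was bin 3 of chromosome 7, from 4916449 to 7374672, with 278 regions found in both replicates, 409 and 532 in the lists, and 2.69 times the median bin.

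The chromosome ends differed between the species in the INTACT lists. In the outermost 1 Mb at each end the density over that of the rest of the chromosome was 1.35 and 1.37 in Medicago, against 0.758 and 0.524 in Arabidopsis, and 1.38 against 0.649 for regions found in both replicates. The Medicago lists were above 1 and the Arabidopsis lists below 1, so the groups did not overlap (log2 difference 1.11, exact permutation p 0.333, adjusted p 0.4, a measure added after the data were seen). In the sucrose lists the ratio was 0.999 and 0.959, nearer to 1 but still below Medicago. With these counted as Arabidopsis the exact permutation p was 0.133. By bins, the mean of the first and last bin was above the median bin on 7 of 8 Medicago chromosomes, against 0 of 5 Arabidopsis chromosomes, for regions found in both replicates. The Medicago lists had 7 and 6 such chromosomes, and the INTACT Arabidopsis lists had 0 each. The sucrose lists differed from these. Their end bins averaged above the median bin on chromosomes 2, 3 and 4 in replicate 1 and on chromosomes 2 and 4 in replicate 2. On chromosomes 1 and 5 in replicate 1, and 1, 3 and 5 in replicate 2, they averaged below it. By distance from the nearer end in 5 equal classes, Medicago had 57.8, 49.5, 53.3, 57.2 and 58.3 regions per Mb from end to middle, and Arabidopsis had 76.7, 95.3, 115.5, 144.3 and 105.0. The Arabidopsis density therefore peaked at 30 to 40% of the chromosome's length from an end, while the Medicago values stayed within 49.5 to 58.3.

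Set as the inner 10 bins over the outer 10, the density ratio was 0.994 and 1.18 in Medicago, against 1.15 and 1.57 in Arabidopsis. The lists overlapped, and the difference was -0.31 on the log2 scale with a pooled SD of 0.259 (exact permutation p 0.667, adjusted p 0.833). Without Arabidopsis replicate 2 it was -0.079 and without Arabidopsis replicate 1 it was -0.53. With the inner 20% of the chromosome against the rest it was 0.13, with Medicago higher.

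Arabidopsis genes could be set beside the regions. Counted per 100 protein-coding genes, the 4 outermost bins of each chromosome (2 at each end) held 27.2 regions found in both replicates, and the 10 inner bins held 62.0. Replicate 1 had 56.8 in the outermost bins and 104.7 in the inner bins, and replicate 2 had 43.3 and 121.8. In the 14 bins with under 0.5 of their chromosome's median gene number, replicate 1 had 88.8 regions per 100 genes and replicate 2 had 236.3. Across the 100 bins, regions and genes correlated with r = 0.713 in replicate 1 and r = 0.337 in replicate 2, as a description of bins that share a library. Bins differ in length between chromosomes, which enters these pooled values. Within chromosomes r was 0.595 to 0.798 in replicate 1 and 0.0676 to 0.404 in replicate 2, lowest on chromosome 3 in each. Per gene, Arabidopsis replicate 2 had more regions than replicate 1 where genes are few and fewer at the chromosome ends.

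**Figure D3:**
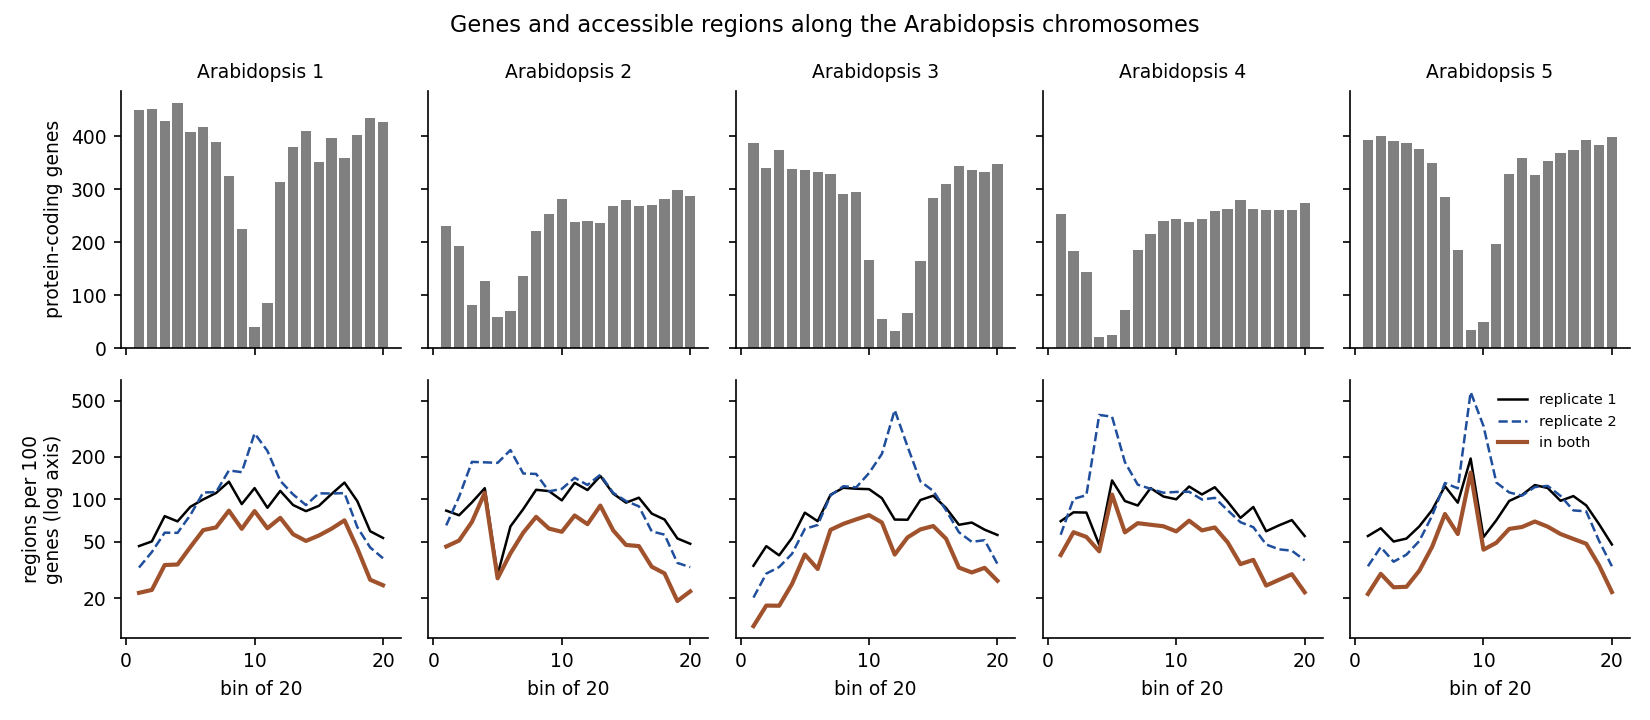
Protein-coding genes per bin (upper row) and open regions per 100 of these genes (lower row, log axis) in 20 equal bins along the 5 Arabidopsis chromosomes, with a line for each replicate and for regions found in both. Replicate 2 rises above replicate 1 in the bins with few genes, at 236.3 against 88.8 regions per 100 genes over 14 such bins.

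Neighbouring regions lay farther apart in Medicago than in the INTACT Arabidopsis lists. The median gap from the end of a region to the start of the next was 3425 and 3001 bp in Medicago, against 2052 and 2036 bp in Arabidopsis, with no overlap of the lists. Between regions found in both replicates it was 5928 bp in Medicago and 4148 bp in Arabidopsis. The log2 difference of the lists was 0.65 with a pooled SD of 0.0955 (exact permutation p 0.333, adjusted p 0.667). The difference was 0.15 with the sucrose lists counted as Arabidopsis (exact permutation p 0.867). Both sucrose lists had a longer median gap than either Medicago list, so the direction depended on which Arabidopsis lists were used. The share of gaps under 1 kb was 28.6% and 29.5% in Medicago, against 34.7% and 33.7% in Arabidopsis, a difference of -5.14 percentage points (exact permutation p 0.333, adjusted p 0.667). Between regions found in both replicates that share was 20.8% in Medicago and 21.5% in Arabidopsis, and with the sucrose lists the difference was 0.67 points.

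Relative to the mean gap, short gaps were more frequent in Medicago than in Arabidopsis. The mean gap was 10.8 and 9.53 kb in Medicago, against 4.73 and 4.67 kb in Arabidopsis. Gaps shorter than 0.1 of their list's mean made up 30.0% and 28.8% in Medicago, against 21.8% and 19.6% in Arabidopsis. The median gap was 0.317 and 0.315 of the mean gap in Medicago, against 0.433 and 0.436 in Arabidopsis, and 0.490 and 0.482 in the sucrose lists. The log2 difference of this added measure was -0.46 (exact permutation p 0.333, adjusted p 0.4), and with the sucrose lists counted as Arabidopsis the exact permutation p was 0.0667. The coefficient of variation of gaps did not separate the species, at 1.91 and 1.87 in Medicago, against 2.47 and 1.59 in Arabidopsis (log2 difference -0.066, exact permutation p 1, adjusted p 1). The difference was 0.25 without Arabidopsis replicate 1 and -0.38 without Arabidopsis replicate 2.

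Long gaps took up much of the Medicago chromosomes. Gaps of 50 kb or more made up 34.2% and 29.9% of the length between regions in Medicago, against 13.1% and 4.16% in Arabidopsis, and the sucrose lists gave 19.3% and 14.3%. The log2 difference of this added measure was 2.12 (exact permutation p 0.333, adjusted p 0.4), 2.94 without Arabidopsis replicate 1 and 1.29 without Arabidopsis replicate 2. They numbered 1486 and 1362 in the Medicago lists, against 123 and 66 in the Arabidopsis lists. Set between regions found in both replicates, they held 50.1% of the length between regions in Medicago and 18.7% in Arabidopsis, in 2037 gaps (9.60% of gaps) and 210 gaps (1.64%). A fixed length favours the sparser species, since the mean Medicago gap is longer. On each list's own scale, gaps over 3 means made up 8.44% and 8.64% of gaps in Medicago, against 6.40% and 7.99% in Arabidopsis. Regions with no neighbour within 20 kb on either side made up 3.56% and 3.15% in Medicago, against 0.412% and 0.439% in Arabidopsis. Among regions found in both replicates they numbered 1738 (8.19%) in Medicago and 227 (1.78%) in Arabidopsis. The sucrose lists had 2.57% and 0.949%, above the INTACT Arabidopsis lists and below Medicago.

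**Figure D4:**
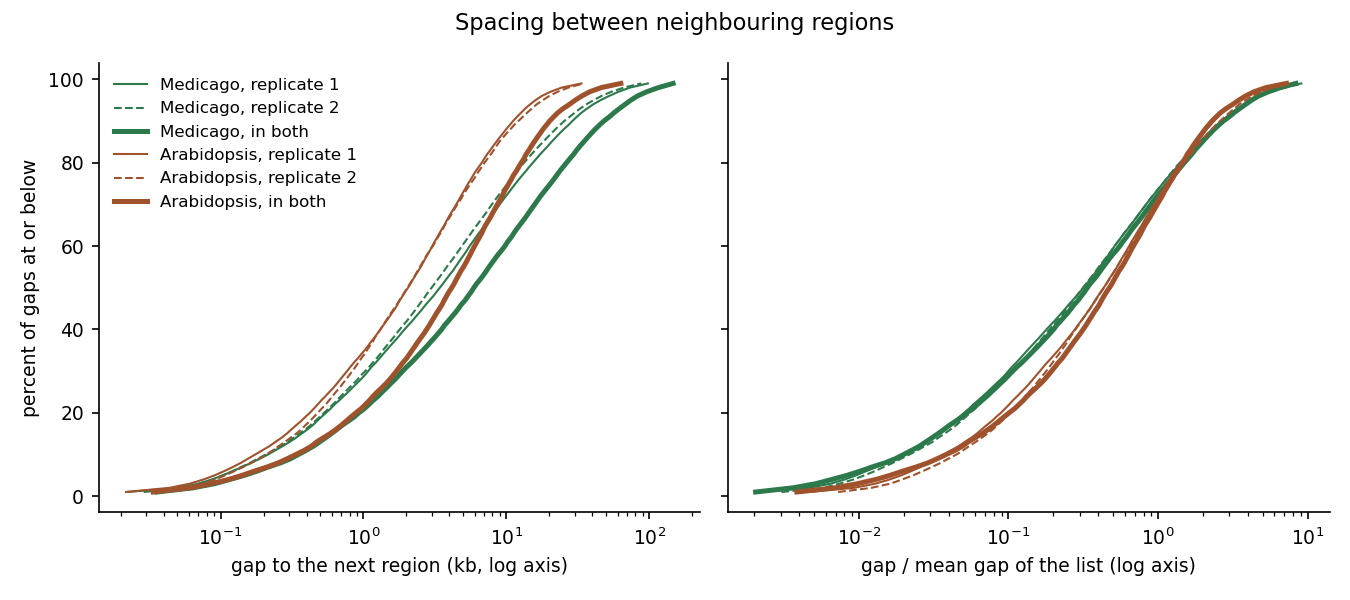
Percent of gaps at or below a given length (y axis), with the gap in kb at the left and relative to the list's mean gap at the right (x axes, log scale), for each replicate and for regions found in both, in Medicago and Arabidopsis. Medicago gaps are longer (medians 3425 and 3001 bp, against 2052 and 2036 bp in Arabidopsis), and relative to the mean Medicago has more short gaps.

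The longest gap between regions found in both replicates lay in the chromosome's lowest bin on 1 of 8 Medicago chromosomes, against 5 of 5 Arabidopsis chromosomes. Within lists this was so on 1 chromosome in each Medicago list, against 5 in Arabidopsis replicate 1 and 1 in Arabidopsis replicate 2, so the contrast was not seen with Arabidopsis replicate 2. The longest Medicago gaps ran from 23359619 to 23891743 on chromosome 5 (532 kb), from 17658119 to 18169299 on chromosome 3 (511 kb) and from 38221572 to 38716769 on chromosome 8 (495 kb). Over the Medicago chromosomes the longest gap was 13.0 to 33.6 times the mean gap. The longest Arabidopsis gaps ran from 12656375 to 13586756 on chromosome 3 (930 kb), from 3061523 to 3667711 on chromosome 4 (606 kb), from 12079780 to 12618901 on chromosome 5 (539 kb), from 14722174 to 15081790 on chromosome 1 (360 kb) and from 4478157 to 4799586 on chromosome 2 (321 kb). They were 39.8 to 91.6 times the chromosome's mean gap. In Arabidopsis replicate 1 the longest gaps were 310 to 477 kb, whereas in replicate 2 they were 69.6 to 212 kb.

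The longest Arabidopsis gaps held mostly entries that the gene table labels pseudogenes, a label that does not say what sequence they derive from. The gene table lists 617 genes of any kind in these 5 gaps, of which 513 (83.1%) are pseudogenes, transcribed ones included, and 80 are protein coding. Over the whole table of 37899 genes, pseudogenes make up 12.8%. By chromosome the share in the longest gap was lowest on chromosome 2, at 73.1%, and highest on chromosome 4, at 92.6%.

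At the scale of 100 kb windows, empty windows made up 7.32% of Medicago windows (281 of 3839) and 4.29% of Arabidopsis windows (51 of 1188) for regions found in both replicates. The lists had 157 and 103 empty windows in Medicago, against 41 and 3 in Arabidopsis. The fullest 10% of windows held 26.5% of the regions in Medicago and 20.6% in Arabidopsis, with 24.1% and 25.8% in the Medicago lists against 19.3% in each Arabidopsis list. A window held 5.52 regions on average in Medicago and 10.7 in Arabidopsis, for regions found in both replicates. Lower mean counts raise both shares, and their part in these differences was not tested. The fullest Medicago windows held 26 regions, among them chromosome 2 from 28800001 to 28900000. The fullest Arabidopsis window, chromosome 2 from 3300001 to 3400000, held 49 regions found in both replicates and 63 annotated genes, 29 of them protein coding, 7 tRNA genes and 18 pseudogenes. Arabidopsis chromosome 2 is known to carry a copy of mitochondrial DNA beside its centromere, and the part of organelle reads in the window's count was not tested. Chains of 3 or more regions with gaps under 1 kb held 23.0% and 24.4% of regions in Medicago, against 30.1% and 28.1% in Arabidopsis, and 13.9% against 13.8% for regions found in both replicates.

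The lists of the 2 species overlapped in width. The commonest width, also the smallest, was 193 and 191 bp in Medicago, against 191 and 211 bp in Arabidopsis, and 28.8% and 38.8% of Medicago regions had it, against 22.7% and 34.5% of Arabidopsis regions. No region of a list was narrower, and this floor differed between the lists. The median width was 297 and 247 bp in Medicago, against 307 and 287 bp in Arabidopsis, with overlap between the species (log2 difference -0.13, pooled SD 0.142, exact permutation p 0.667, adjusted p 0.833). The difference was -0.27 without Medicago replicate 1 and 0.00082 without Medicago replicate 2. Among regions found in both replicates, which were joined, it was 414 bp in Medicago and 458 bp in Arabidopsis. By chromosome that median was 409 to 424 bp in Medicago and 451 to 466 bp in Arabidopsis. Regions of 1 kb or more made up 2.53% and 1.36% in Medicago, against 1.98% and 1.38% in Arabidopsis, and they too overlapped (0.26 percentage points, exact permutation p 1, adjusted p 1). Among regions found in both replicates they were 1179 regions (5.56%) in Medicago and 741 regions (5.79%) in Arabidopsis.

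In both species, median width was higher for regions close to a neighbour than for isolated ones, and higher in the innermost class of position than in the outermost. For regions found in both replicates, those with no neighbour within 20 kb had a median width of 358 bp in Medicago and 417 bp in Arabidopsis, and those with a neighbour within 1 kb had 465 bp in Medicago and 495 bp in Arabidopsis. By distance from the chromosome end, the median width was 405 bp in the outermost class and 427 bp in the innermost class in Medicago, and 435 bp and 473 bp in Arabidopsis.

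**Figure D5:**
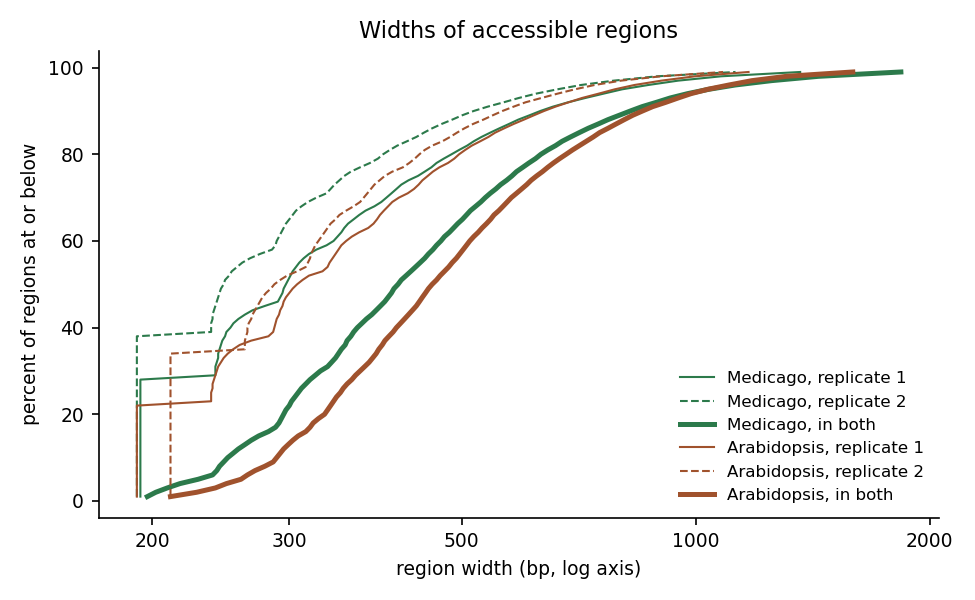
Percent of regions at or below a given width (y axis) against width in bp (x axis, log scale), for each replicate and for regions found in both, in Medicago and Arabidopsis. The steps at the left are the commonest widths, and the medians are 414 bp in Medicago and 458 bp in Arabidopsis for regions found in both replicates.

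Among regions found in both replicates, those of 2 kb or more numbered 179 in Medicago (0.844% of regions) and 53 in Arabidopsis (0.414%). Per length of chromosome they were close, at 4.66 per 10 Mb in Medicago and 4.45 per 10 Mb in Arabidopsis. Regions of 5 kb or more numbered 23 in Medicago (0.108%) and 2 in Arabidopsis (0.0156%), or 0.598 and 0.168 per 10 Mb. The highest number of 2 kb regions per length in Medicago was on chromosome 4, with 35 regions or 6.19 per 10 Mb, and in Arabidopsis it was on chromosome 2, with 17 regions or 8.63 per 10 Mb. Single regions were ranked by the mean over replicates of their percentile of width within the list. The first in Medicago was on chromosome 4 from 18328283 to 18345992, 17709 bp wide in replicate 1 and 17660 bp in replicate 2. The second, on chromosome 4 from 18053221 to 18064013, was 10763 and 10793 bp wide in the replicates. The third, on chromosome 2 from 27951686 to 27968603, was 16918 bp wide in replicate 2 and 7502 bp in the widest of 4 pieces in replicate 1. With the named region itself counted, 35, 37 and 21 regions lay within 250 kb, of which 12, 9 and 4 were 1 kb or wider.

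The Arabidopsis regions ranked in this way were shorter. The first, on chromosome 2 from 3618331 to 3624073, was 5725 and 5743 bp wide in the replicates and overlaps the gene AT2G08986. The next, on chromosome 4 from 3950421 to 3956033, was 5576 and 5587 bp wide and overlaps the pseudogene AT4G06700. The third, on chromosome 3 from 14093246 to 14097583, was 4326 and 4292 bp wide and overlaps AT3G33530 and ARP6, which encodes an actin-related subunit of the SWR1 complex that exchanges histone H2A for H2A.Z. Arabidopsis coordinates are on the TAIR10 build, which the submitters' processing notes name, while the Medicago build is not given in the sources used here.

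The share of regions that recurred in the other replicate varied with width and position. In Medicago 63.5% of replicate 1 regions and 58.2% of replicate 2 regions touched one of the other replicate, against 56.2% and 56.6% in Arabidopsis. Regions of the commonest width did so in 35.6% and 35.3% in Medicago, against 23.6% and 35.7% in Arabidopsis, and regions of 1 kb or more in 99.1% and 95.8% in Medicago, against 98.5% and 94.5% in Arabidopsis. Wide regions have more length in which to touch another, so these shares are not independent of width. The inner bins recurred more than the outer bins in replicate 1 of both species, at 66.3% and 60.8% in Medicago and 60.9% and 50.8% in Arabidopsis. In replicate 2 they recurred less, at 55.7% and 61.2% in Medicago and 53.6% and 61.2% in Arabidopsis. Regions seen in a single replicate had an inner to outer density ratio of 0.854 and 1.35 in Medicago, against 0.911 and 1.88 in Arabidopsis. Regions that recurred had ratios of 1.09 and 1.08 in Medicago and of 1.37 in each Arabidopsis list. Since the recurring regions are nearly the same set in both lists of a species, the inner and outer shares follow from each list's own inner to outer ratio. They are not a separate result.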

How the data were processed

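ATAC-seq regions of Medicago and Arabidopsis root tip nuclei were compared. Each region list gives chromosome, start and end with no other value, as deposited; the authors' positions carry no score, count or signal, so depth and counting error are unknown. Per the submitters' processing notes, Bowtie2 and HOMER were used and the TAIR10 and IRGSP-1.0 builds are named, with no version or role; the file names give a HOMER region setting of 150. Starts were made 1-based. Regions on numbered chromosomes were kept. Regions of the 2 replicates touching by at least 1 bp were joined and called found in both. For 10 measures the species were compared with an exact two-sided permutation test over lists (6 assignments) and adjusted by Benjamini-Hochberg; 6 more measures were added after the values were seen. Genes came from a RefSeq table on TAIR10.1, which keeps the TAIR10 nuclear chromosomes, and none of its coordinates is printed. Named regions are the 3 per species with the highest mean width percentile over the replicates. The members, measures and lists were chosen with earlier results of these data known. The scripts were tested on simulated lists. Python 3.11.15, NumPy 2.4.6, pandas 2.3.3 and Matplotlib 3.10.9 were used.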

Additional observations from a re-analysis of the deposited data

Results flagged for a closer look

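Medicago regions on sequences outside the 8 numbered chromosomes were in no comparison above. They numbered 962 in both replicates, on 367 sequences, out of 1392 (3.89%) and 2363 (5.71%) in the lists. Their median width was 443 bp and the widest was 58384 bp.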

How the results depend on the processing

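The 10 measures had 122 alternative values, of which 110 kept their direction, and no comparison could pass 0.05 in any of them with 2 lists a species. The 110 include the replicate block of each of the 10 measures, which returns the main value by construction and could not turn. Density, covered percentage, variation between chromosomes, variation along the chromosome and median gap kept their direction. For density, several of these say nothing of stability, since equal numbers of regions per list give the ratio of the chromosome spans (-1.69), and the widest 50% and the block return the same value by construction. Median width turned to 0.036 (log2) above a minimum width and 0.046 with the sucrose lists. Leaving out 1 list gave -0.27 to 0.00082 for median width. With equal numbers of the widest regions it was 0.22, which says nothing of stability. That setting kept 23288 regions per list, so it left the Arabidopsis lists nearly whole. It dropped the narrower regions of the Medicago lists, which raises their median by construction. The share of regions of 1 kb or more turned to -2.68 points with regions under 500 bp apart joined, -0.24 for regions found in both replicates and -0.98 with 600 bp as the minimum; leaving out 1 list gave -0.32 to 0.85. Gaps under 1 kb turned to 0.67 points with the sucrose lists, central to outer density to 0.13 with the central 20%, and variation of gaps ran from -0.38 to 0.25 without 1 list. The highest bin over the median turned to -0.095 with the widest 50%, -0.059 above the minimum width and -0.026 for both replicates, with -0.057 to 0.10 without 1 list. Regions in both replicates fell to 11349 in Medicago and 6939 in Arabidopsis with the widest 50% of each list. With reciprocal overlap of 50% the inner minus outer share was 3.84 points in Medicago replicate 1 and 6.88 in Arabidopsis replicate 1. The cause of the other turns was not tested. With a replicate block the density difference was -1.05 (exact permutation p 0.5, the smallest of its 4 assignments), and the p of each other measure was 0.5 or 1 with the same effect; the numbers could not be checked for pairing because the genomes differ. Alternative chromosome lengths were not run.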
